A study of Mus musculus with 6 samples.

Results

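The miR-182, miR-183 and miR-96 cluster is a group of 3 microRNA genes that lie close together and are transcribed in the same direction. The assays were chosen by name from the deposited raw values: the name had to read miR-182, miR-183 or miR-96, with any species prefix and on either card, and names ending in # were left out. This gave mmu-miR-182, mmu-miR-183 and mmu-miR-96, which are 3 of the 750 miRNA assays measured, and all 3 are on card A. The names carry no arm, and they were read as the 5p arm because a # marks the opposite arm in this naming. The probe sequences were not used here.

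The members are cut from a shared primary transcript in many tissues, and the cluster is best known from sensory organs, where hair cells of the inner ear and photoreceptors are rich in it. Base changes in the seed of miR-96, the stretch near its 5′ end that pairs with target messages, cause hearing loss in mice and in people. miR-182 is known for repressing FOXO transcription factors, and ezrin is a reported target of miR-183. The blastocyst is the embryo just before implantation and consists of an inner cell mass and an outer epithelium, the trophectoderm.

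The mature sequences are given because the 3 members have nearly the same seed without sharing it. They are those of RefSeq on GRCm38.p6, found by name for 3 of 3 members, and bases 2 to 8, the seed, are in capitals.
mmu-miR-182-5p: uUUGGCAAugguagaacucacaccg
mmu-miR-183-5p: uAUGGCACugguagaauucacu
mmu-miR-96-5p: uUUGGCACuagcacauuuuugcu
Counted from the 5′ end, the first 8 bases of miR-182 and miR-96 differed by A8C alone, and those of miR-183 and miR-96 by A2U alone. miR-182 and miR-183 differed at both places, by U2A and A8C, but over their whole length they were the closest pair. Aligned from the first base without gaps, 18 of 22 bases were identical between miR-182 and miR-183, against 12 of 23 between miR-182 and miR-96 and 13 of 22 between miR-183 and miR-96. Among the 1679 mature names in the table, only miR-1271-5p had the same bases 2 to 8 as miR-96, and no other name had those of miR-182 or miR-183. No assay on the cards is named for miR-1271.

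In RefSeq on GRCm38.p6 the 3 hairpins lie on the minus strand of chromosome 6, in the order Mir183 (chr6:30169668-30169737), Mir96 (chr6:30169446-30169551) and Mir182 (chr6:30165918-30165992). Mir183 and Mir96 are separated by 116 bases, whereas Mir182 lies 3453 bases further on. In the annotation the long non-coding gene Mirc35hg overlaps the stretch that holds the 3 hairpins. The nearest protein-coding genes on either side are Nrf1 and Ube2h. A PCR assay does not depend on a genome build, so these positions describe the genes and not the measurements.

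The study asked whether vitrification, a form of rapid freezing, changes the miRNAs of mouse blastocysts. Blastocysts of Kunming mice came from superovulated females 5 weeks of age and were cultured in CZB medium. In the vitrified group (V1, V2 and V3) they were held for 30 seconds in 10% ethylene glycol with 10% DMSO and for 25 seconds in EDFS30, frozen in open-pulled straws in liquid nitrogen, and thawed for 5 minutes in 0.5 M sucrose. The fresh group (F1, F2 and F3) was not frozen. Each of the 6 samples was a pool of 300 blastocysts, from which 30 ng of RNA was reverse transcribed, pre-amplified and run on the A and B cards of the TaqMan rodent MicroRNA array set. Each assay has 1 value per pool. Nothing in the labels says whether the pools came from separate matings, so the p-values measure only the spread between these pools, which may be technical.

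The value of a well is its threshold cycle (Ct), the PCR cycle at which fluorescence crosses a threshold, so that a lower Ct means more template and 1 cycle corresponds to a factor of 2. A well that did not cross by cycle 40 was deposited as undetermined. The pools numbered 1 stood apart from the rest: 218 of the 750 miRNA assays were determined in V1 and 140 in F1, against 382 to 409 in each of the other 4 pools. The mean Ct of the small nuclear RNA U6 on card A, the reference used by the authors, was nevertheless between 16.59 and 17.82 in all 6 pools. The small RNA snoRNA202 on the same card was at 25.90 in V1 and 27.47 in F1 and at 17.79 to 18.22 in the others. Results are therefore given with and without the pools numbered 1.

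Lists of miRNAs known from the embryo, from blood and from muscle were set beside these pools. Of the 20 assays for miR-290 to miR-295 and miR-302, the miRNAs of the early embryo and of embryonic stem cells, 12 were determined in at least 1 pool and 8 in all of V2, V3, F2 and F3, and 0 in V1 or in F1. The earliest of them was mmu-miR-292-3p on card A, at 25.47 in V2, 23.04 in V3, 23.07 in F2 and 24.90 in F3, and it was undetermined in V1 and F1. Of 6 assays for miRNAs of blood cells (miR-142, miR-150, miR-223 and miR-451), 6 were determined in V2, V3, F2 and F3 and 4 in all pools. mmu-miR-451, a red blood cell miRNA, was at 21.91 to 23.54 in V2, V3, F2 and F3, at 33.09 in V1, and undetermined in F1. mmu-miR-150, a lymphocyte miRNA, was at 23.32 in F1 against 22.74 in F2 and 22.02 in F3. Of 6 assays for muscle miRNAs (miR-1, miR-133 and miR-206), 5 were determined in the 4 pools and 2 in all pools. hsa-miR-206 was at 33.07 in V1 and 32.78 in F1, against 30.08 to 32.95 in the 4 pools. mmu-miR-133a was at 30.23 in V1 and 30.34 in F1, against 23.01 to 25.45 in the 4 pools. mmu-miR-1, rno-miR-1 and mmu-miR-133b were undetermined in V1 and F1. The part of blood or muscle RNA in the values of the cluster was not tested, and in pools of whole embryos fewer cells of a type and less RNA per cell cannot be told apart.

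mmu-miR-182 had the earliest Ct of the 3 members and was determined in every pool. The vitrified pools had raw Ct values of 29.97 (V1), 27.30 (V2) and 28.07 (V3), and the fresh pools 33.95 (F1), 26.84 (F2) and 26.90 (F3). F2 and F3 were the earliest and F1 by far the latest, so the fresh pools lay on both sides of the vitrified ones. mmu-miR-183 was undetermined in V1 and F1, and otherwise had raw Ct values of 32.20 (V2) and 33.07 (V3) against 31.12 (F2) and 31.30 (F3). Both fresh wells crossed before both vitrified wells. mmu-miR-96 was undetermined in the same pools, V1 and F1, and its other wells crossed at 32.13 (V2) and 32.31 (V3) against 32.98 (F2) and 33.13 (F3). Here both vitrified wells crossed before both fresh wells, the opposite order to that of mmu-miR-183.

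**Figure D1:**
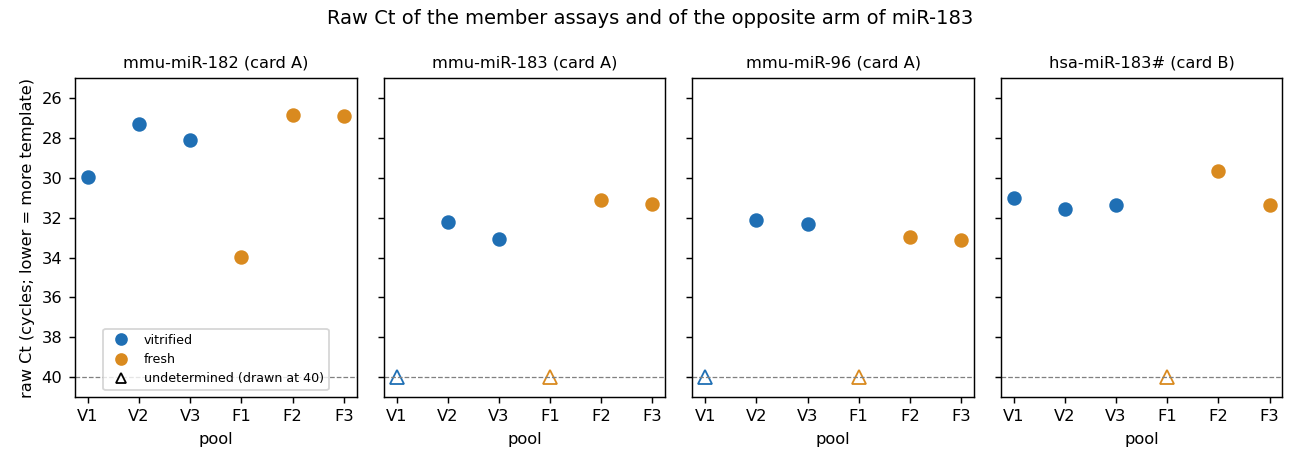
Raw Ct in cycles, on an axis that runs downwards so that more template is higher, for the 3 members and for the opposite arm of miR-183 in each of the 6 pools; filled circles are determined wells and open triangles at 40 are undetermined wells. mmu-miR-182 spans 26.84 to 33.95, and mmu-miR-183 and mmu-miR-96 are open triangles in V1 and F1.

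Within card A, mmu-miR-182 stood near the middle of the determined miRNA assays and the other members among the later ones. Counted from the earliest Ct, mmu-miR-182 was number 107 of 212 determined assays in V2, 119 of 234 in V3, 102 of 239 in F2 and 101 of 229 in F3. In the pools with few determined assays it was number 50 of 140 (V1) and 74 of 88 (F1). The share of determined assays that crossed before mmu-miR-183 was 83.0% (V2) and 86.3% (V3) against 71.1% (F2) and 75.1% (F3). For mmu-miR-96 it was 82.5% and 79.9% in V2 and V3 against 84.5% and 89.1% in F2 and F3. The order of the members was thus miR-182, miR-183, miR-96 in both fresh pools and miR-182, miR-96, miR-183 in both vitrified pools numbered 2 and 3, and in V2 the last pair was only 0.06 cycles apart. A Ct difference between assays also carries the difference in their PCR efficiency, so these places order the assays and do not give a ratio of molecules.

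**Figure D2:**
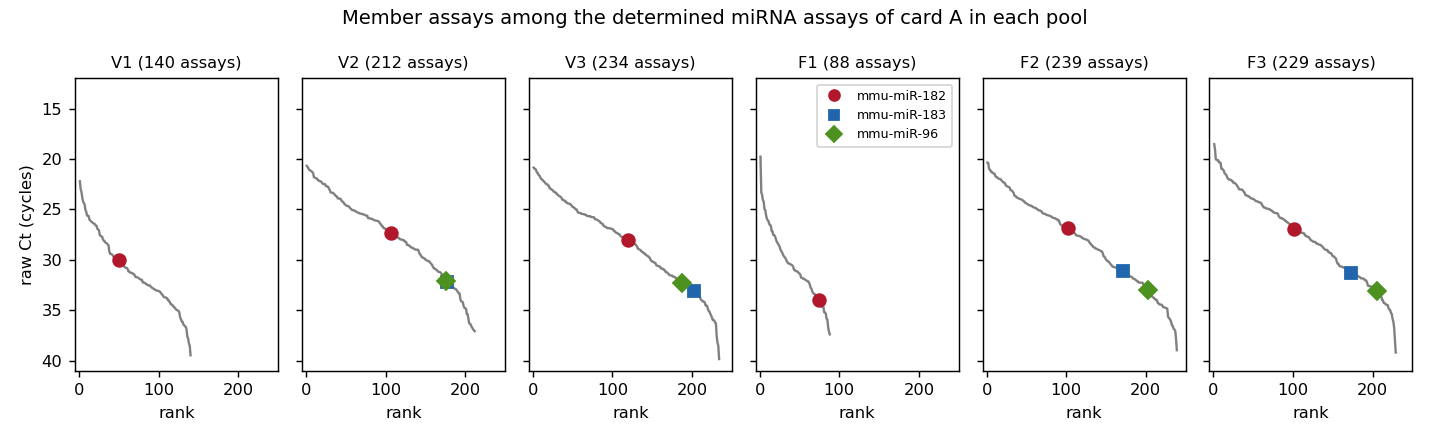
Raw Ct in cycles against rank for the determined miRNA assays of card A in each pool (grey line, 88 assays in F1 to 239 in F2), with the 3 members marked. mmu-miR-182 sits near the middle of the line in V2, V3, F2 and F3, and mmu-miR-183 and mmu-miR-96 lie further right and are absent from V1 and F1.

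The undetermined wells of the cluster were of a common kind. On card A, 196 of 375 assays were determined in all of V2, V3, F2 and F3, and 65 of these 196 were undetermined in both V1 and F1, as mmu-miR-183 and mmu-miR-96 were. Of the 24 card A assays with a mean Ct from 31 to 33 cycles over those 4 pools, a range that holds both members (31.92 and 32.64), 18 were determined in neither V1 nor F1. Of the 39 assays with a mean Ct from 26 to 28, which include mmu-miR-182 at 27.28, 14 were determined in both. Where it was determined, mmu-miR-182 crossed 2.28 cycles later in V1 than the mean of V2 and V3 and 7.08 cycles later in F1 than the mean of F2 and F3. Over the 80 card A assays determined in all 6 pools, the median was 4.64 cycles for V1 and 6.38 cycles for F1. For mmu-miR-183 the delay was at least 7.37 cycles in V1 and 8.79 in F1, and for mmu-miR-96 at least 7.78 and 6.94, since these wells had not crossed at cycle 40.

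To compare vitrified with fresh blastocysts, the mean Ct of the 4 U6 wells of card A was subtracted from the Ct of an assay in the same pool (ΔCt), and the log2 fold change was the mean of −ΔCt in vitrified pools minus that in fresh pools. Undetermined wells were excluded, and the 335 assays with at least 2 determined values in each group were fitted together with limma, adjusting p-values over all of them by the Benjamini-Hochberg method. At a threshold of 0.05 the adjusted p-values called 0 of these 335 assays (0%) and the unadjusted ones 1 (0.299%), which was not a member.

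mmu-miR-182 had a ΔCt of 12.15 in V1, 10.20 in V2 and 11.11 in V3, with a mean of 11.15 ± 0.98 (SD, n = 3), and of 16.87 in F1, 10.25 in F2 and 9.94 in F3, with a mean of 12.36 ± 3.92 (SD, n = 3). Its log2 fold change of 1.20 had a standard error of 2.0 and a limma adjusted p of 0.998. The difference was smaller than its error, and the groups overlapped (p = 0.9 by a 2-sided exact permutation test, whose lowest possible value here is 0.1). F1 set the sign of this value. Without F1 the log2 fold change was −1.06, and in the pools numbered 2 and 3 alone it was −0.56, from means of 10.65 ± 0.64 (SD, n = 2) for V2 and V3 and 10.10 ± 0.22 (SD, n = 2) for F2 and F3. It was 4.72 between V1 and F1. Replacing U6 by the mean of the other endogenous controls gave −0.66.

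For mmu-miR-183 the mean ΔCt of the vitrified pools was 15.60 ± 0.72 (SD, n = 2), from 15.09 (V2) and 16.10 (V3), and that of the fresh pools 14.44 ± 0.14 (SD, n = 2), from 14.54 (F2) and 14.34 (F3). The level was 2.23-fold higher in fresh pools, at a log2 fold change of −1.16 with a standard error of 1.17 and a limma adjusted p of 0.998. For mmu-miR-96 the mean ΔCt was 15.19 ± 0.23 (SD, n = 2) in vitrified pools, from 15.03 (V2) and 15.35 (V3), and 16.28 ± 0.16 (SD, n = 2) in fresh pools, from 16.40 (F2) and 16.17 (F3). The level was 2.14-fold higher in vitrified pools, at a log2 fold change of 1.10 with a standard error of 1.12 and a limma adjusted p of 0.998. For neither member did the difference exceed this error, which in limma also draws on the spread of the other assays. In the limma fit of the pools numbered 2 and 3 alone, the same values had smaller standard errors, 0.64 for mmu-miR-183 and 0.56 for mmu-miR-96. There both differences exceeded their error, and the limma adjusted p was 0.867 for each. With U6 as the reference, these neighbours in the genome thus had differences of nearly the same size and of opposite sign. The sign was opposite but the sizes were unequal with the other endogenous controls (−1.98 for mmu-miR-183 and 0.28 for mmu-miR-96) and with the global mean (−0.83 and 1.43). For either member the values of the groups did not overlap, and p was 0.333 in a 2-sided exact permutation test, the lowest value possible with 2 pools a group. Gaps of this kind were common: among the 326 assays determined in V2, V3, F2 and F3, both vitrified pools were below both fresh pools on the −ΔCt scale in 10.7%, as for mmu-miR-183, and above both in 18.1%, as for mmu-miR-96. By the log2 fold change in these 4 pools, 27 of the 326 assays lay lower than mmu-miR-183 and 43 lay higher than mmu-miR-96. mmu-miR-182, whose values overlapped, had 86 assays lower than it.

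**Figure D3:**
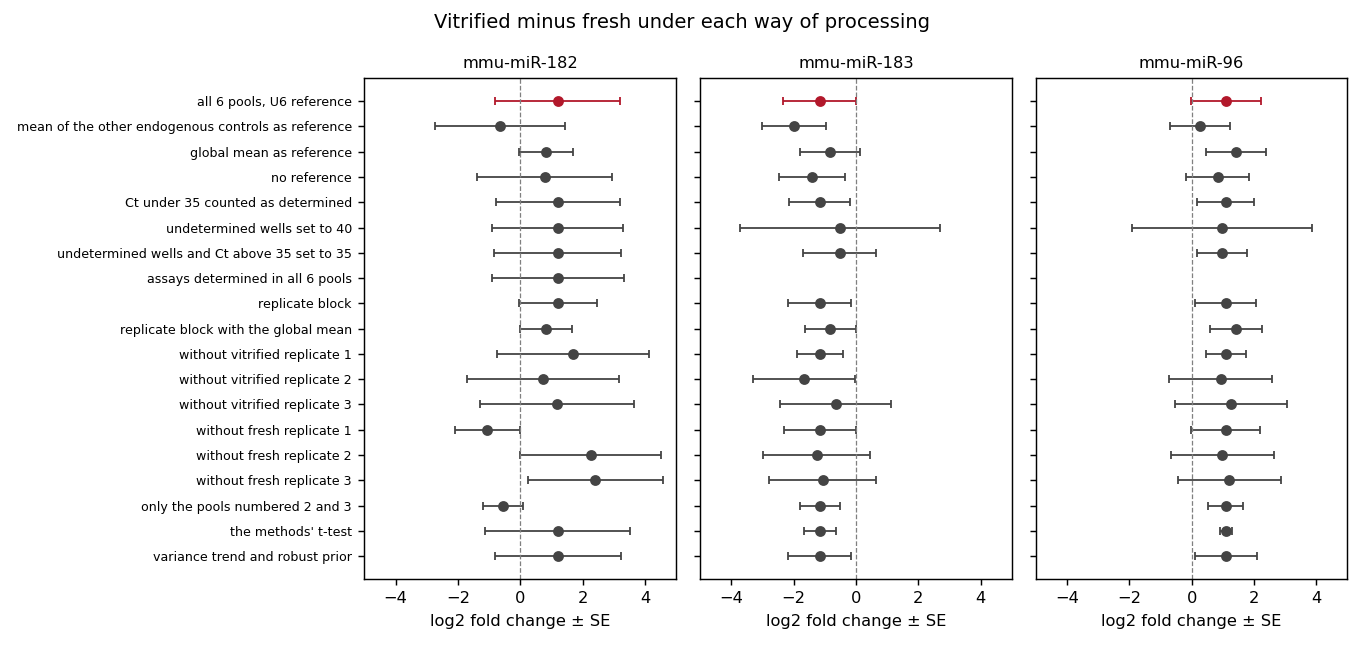
Log2 fold change, vitrified minus fresh, with its standard error for each member under each way of processing; red is the fit of all 6 pools with U6 as the reference. mmu-miR-182 crosses 0 (from −1.06 to 2.41), mmu-miR-183 stays below 0 (from −1.98 to −0.53) and mmu-miR-96 above it (from 0.28 to 1.43).

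The members were then compared with each other inside each pool, because a Ct difference between assays of the same card does not depend on U6. Where both assays have the same PCR efficiency, it does not depend on the amount of RNA loaded either. The raw Ct of mmu-miR-183 was later than that of mmu-miR-182 by 4.89 cycles in V2, 5.00 in V3, 4.29 in F2 and 4.40 in F3. In V1 it was later by at least 10.03 cycles and in F1 by at least 6.05. The mean lag was 4.94 ± 0.07 (SD, n = 2) with vitrification and 4.34 ± 0.08 (SD, n = 2) without it. These means differ by 0.60 cycles (standard error 0.08). This standard error, like those of the other pairs, comes from the pair's own 2 pools a group and cannot be compared with those of limma. The vitrified values lay above the fresh ones by more than the spread within either group. How often other pairs of assays on the card separate the groups in this way was not counted.

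The raw Ct of mmu-miR-96 was later than that of mmu-miR-182 by 4.83 cycles (V2) and 4.24 (V3) against 6.15 (F2) and 6.23 (F3), with the same lower bounds of 10.03 in V1 and 6.05 in F1. The difference between the group means was −1.65 cycles (standard error 0.30). With the undetermined wells set to 40 it was 0.22 over all 6 pools, so this sign rests on leaving out V1 and F1. The raw Ct of mmu-miR-183 minus that of mmu-miR-96 was 0.06 (V2) and 0.76 (V3) against −1.86 (F2) and −1.83 (F3). mmu-miR-183 was thus the earlier of the pair in both of these fresh pools and the later in both of these vitrified pools. The raw Ct of each assay had already separated the groups, in opposite orders, so a gap in their difference had to follow. It is also the difference of the other 2 comparisons, so the 3 are not independent. The mean of mmu-miR-183 minus mmu-miR-96 was 0.41 ± 0.49 (SD, n = 2) in vitrified pools and −1.85 ± 0.02 (SD, n = 2) in fresh pools. These means were 2.26 cycles apart (standard error 0.35), or 4.78-fold in the ratio of templates if both assays double at each cycle. Their PCR efficiencies were not measured. Each of these 3 comparisons had p = 0.333 in a 2-sided exact permutation test, again the lowest value possible, and 0.333 after adjustment over the 3, so the design could not have passed a threshold of 0.05.

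**Figure D4:**
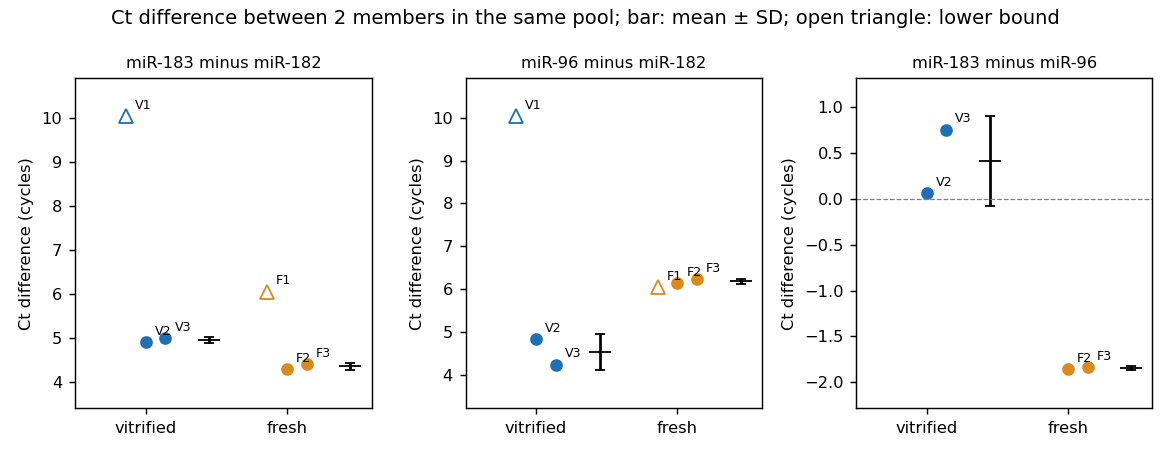
Ct difference in cycles between 2 members in the same pool, by group; circles are pools, bars are means ± SD of the determined pools, and open triangles are lower bounds where the later member was undetermined. For miR-183 minus miR-96 the vitrified pools lie at 0.06 and 0.76 and the fresh pools at −1.86 and −1.83.

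The profile of a member over pools was compared with that of every other assay determined in the same pools, after each was centred on its own mean of −ΔCt. Over V2, V3, F2 and F3, the root mean square difference between mmu-miR-183 and mmu-miR-182 was 0.31 cycles, and 0.619% of 323 assays outside the cluster lay closer to mmu-miR-183 than that. mmu-miR-96 differed from mmu-miR-183 by 1.15 cycles and from mmu-miR-182 by 0.85, and 75.9% and 59.1% of the 323 assays lay closer to mmu-miR-96. Outside the cluster, the assays nearest to mmu-miR-183 were mmu-miR-125a-5p (0.10 cycles), mmu-miR-146a (0.24) and mmu-miR-150 (0.32). Those nearest to mmu-miR-96 were hsa-miR-196a (0.06), mmu-miR-1839-5p (0.16) and mmu-miR-324-5p (0.18). The profile of mmu-miR-182 covered all 6 pools, and the nearest of 121 assays to it were mmu-miR-34c (0.45), mmu-miR-676 (0.49) and mmu-miR-29a (0.63). These are descriptions over 4 or 6 pools, and the assays of a pool share its RNA, its reverse transcription and its U6 value.

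The opposite arm of the miR-183 hairpin was measured by hsa-miR-183# on card B, the only assay of the 3 numbers that ends in #. It crossed at 31.02 (V1), 31.57 (V2) and 31.34 (V3), and at 29.65 (F2) and 31.34 (F3), with F1 undetermined. Unlike mmu-miR-183, it was thus determined in V1, where it crossed 0.43 cycles earlier than the mean of V2 and V3. Of the 65 card B assays determined in V1 and in V2, V3, F2 and F3, 10 had a still smaller delay in V1, and the median delay was 3.05 cycles. With 3 vitrified pools (ΔCt 14.02 ± 0.74, SD) and 2 fresh ones (13.44 ± 1.04, SD), hsa-miR-183# had a log2 fold change of −0.57, a standard error of 1.09 and a limma adjusted p of 0.998. Its groups overlapped, and the 2-sided exact permutation p was 0.5. The ΔCt of this assay minus that of mmu-miR-183, each against U6 of its own card, was −1.23 in V2, −1.28 in V3, −1.83 in F2 and −0.16 in F3. The fresh pools lay on either side of the vitrified ones.

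The miR-200 family and its relatives miR-141 and miR-429, which keep epithelial cells epithelial by repressing Zeb1 and Zeb2, were set beside the cluster as other miRNAs known from epithelia. All 7 of their assays were determined in all 6 pools, V1 and F1 included, whereas 1 of the 3 members was. Their mean raw Ct over V2, V3, F2 and F3 ran from 20.26 for hsa-miR-200c on card B to 25.94 for mmu-miR-429 on card A, all earlier than the 27.28 of mmu-miR-182. Over all 6 pools 6 of the 7 had a positive and 1 a negative log2 fold change, with a median of 0.36. Among all 335 assays 161 were positive and 174 negative, with a median of −0.05. Of those 335, 126 had a Ct in both V1 and F1, as all 7 of the list did, so these counts compare unlike sets. In the pools numbered 2 and 3 alone, 7 of the 7 were negative, as were 165 of all 326 assays, with medians of −0.53 and −0.02. The 7 assays are not all separate miRNAs, since miR-200b and miR-200c each have an assay on both cards. Leaving out V1 and F1 thus turned the sign of the median of the list, as it did that of the value of mmu-miR-182. No assay of the list had an adjusted p-value under 0.05 or an unadjusted one under 0.05 in the fit of all 6 pools.

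**Figure D5:**
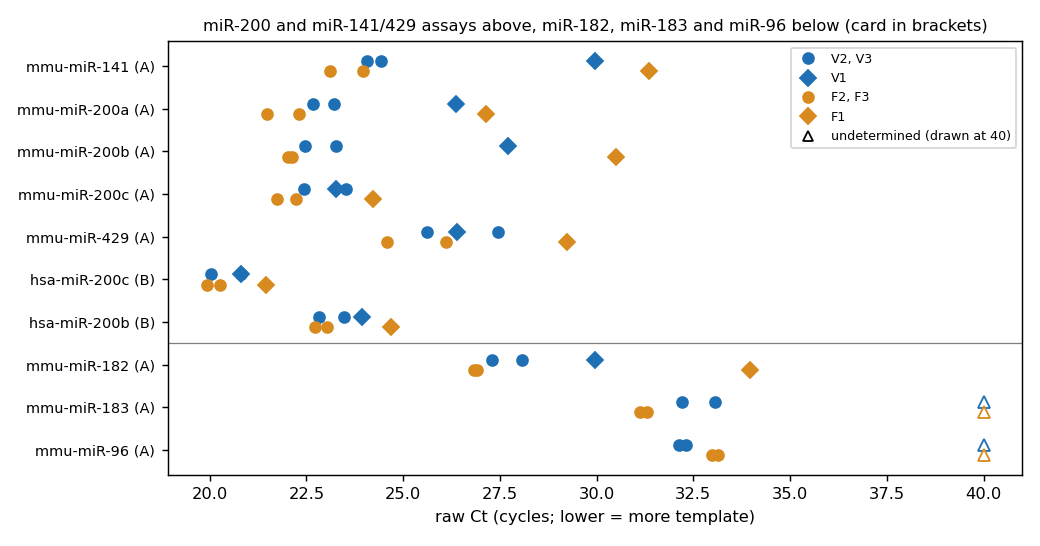
Raw Ct in cycles of the 7 assays for miR-141, miR-200 and miR-429 (above the line) and of the 3 members (below it), blue for vitrified and orange for fresh pools; circles are V2, V3, F2 and F3, diamonds are V1 and F1, and open triangles at 40 are undetermined wells. All 7 upper assays have a Ct in V1 and F1, and of the members mmu-miR-182 alone does.

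Of 4 assays for miRNAs of retina and nervous tissue (miR-9, miR-124, miR-204 and miR-211), where the cluster is also found, 3 were determined in at least 1 pool and 2 could be fitted. mmu-miR-204, which is abundant in the retinal pigment epithelium, was at 25.87 to 26.85 in all 6 pools. Its log2 fold change was 0.13 (standard error 0.85) over all 6 pools and −0.08 in the pools numbered 2 and 3 alone. mmu-miR-124, the main miRNA of neurons, was undetermined in V1 and F1 like mmu-miR-183 and mmu-miR-96, and was at 25.87 in V2, 26.72 in V3, 27.96 in F2 and 28.22 in F3. Its log2 fold change of 2.06 had a standard error of 1.17 and a limma adjusted p of 0.998. Both vitrified wells crossed before both fresh wells, the order seen for mmu-miR-96. mmu-miR-211, a relative of miR-204, was undetermined in every pool. The median log2 fold change was 0.34 over the 6 blood cell assays, 0.40 over the 5 muscle assays fitted and −0.12 over the 8 assays fitted of miR-290 to miR-295 and miR-302, and no assay of these lists had an adjusted p-value under 0.05. In the pools numbered 2 and 3 alone, these medians were 0.31, 0.40 and −0.12. Among the blood cell assays, mmu-miR-451 then went from −2.19 to 1.15 and hsa-miR-223 from 0.31 to −0.22.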

How the data were processed

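The RNA of 3 vitrified and 3 fresh pools was run on 2 TaqMan cards. Raw Ct values were deposited for every well, which the authors read with the RQ Manager software (version and threshold settings not given in the sources used here), without normalization. A second table they deposited holds their own signed fold changes and was not used. Pre-amplification and the number of pools limit the precision of every value, and a well without a Ct gives only a bound at 40 cycles.

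Samples were grouped and numbered by their titles. ΔCt was taken against the 4 U6 wells of the same card, a Ct of 40 or more or an undetermined well was excluded, and assays determined in at least 2 pools of each group were fitted in limma 3.58.1 (lmFit, eBayes; R 4.3.3), with Benjamini-Hochberg adjustment. The step was tested on simulated data. For single values, 2-sided exact permutation tests over pools were used (Python 3.11.15, pandas 2.3.3, numpy 2.4.6), and figures were drawn with matplotlib 3.10.9. Same-numbered pools deviated together from their group means over 122 assays (correlations 0.80, 0.78 and 0.67, where the deviations of a group sum to 0). Since V1 and F1 both stood apart, these correlations cannot show that the pools were paired by number. Pools of unlike number were not correlated. The pool number was also fitted as a block. No pair of pools of a group had an identical Ct for any shared assay.

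The members, the lists and the alternatives were chosen with earlier results of these data known. Named were the members, the # assay of the same numbers, the 3 assays with the profile most like each member, the controls, and members of the lists. Alternatives were other references, other treatments of undetermined wells, the block, each pool left out in turn, the pools numbered 2 and 3 only, and other variance models.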

Additional observations from a re-analysis of the deposited data

How the results depend on the processing

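Adjusted p-values called 0 assays under each of the 18 alternatives at a threshold of 0.05, and the unadjusted count, 1 of 335 with all 6 pools and U6, ranged from 0 to 24. It was 24 of 330 with the replicate block and the global mean, 16 of 326 in the pools numbered 2 and 3, 12 of 362 without V1, 9 with the methods' t-test, 4 with the replicate block or with undetermined wells set to 40 or to 35, 3 with the global mean, without a reference or with a limit of 35 cycles, 2 without F1 or with a variance trend and robust prior, 1 with the other endogenous controls, and 0 in the 4 fits without V2, V3, F2 or F3 and for assays determined in all 6 pools.

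Leaving out single pools gave log2 fold changes from −1.06 to 2.41 for mmu-miR-182, from −1.66 to −0.65 for mmu-miR-183 and from 0.94 to 1.26 for mmu-miR-96, where a group left with a single determined value was assumed to vary like the other. The value of mmu-miR-182 turned negative with the mean of the other endogenous controls (−0.66), without F1 (−1.06) and in the pools numbered 2 and 3 (−0.56). It kept its sign under the other 15 of 18 alternatives. Among these, the treatments of undetermined wells, the block with U6 and the other variance models use the same values of mmu-miR-182 and leave it at 1.20 by construction. mmu-miR-183 and mmu-miR-96 kept theirs under all 17 that could be fitted, since neither has a Ct in all 6 pools. Several of these 17 could not move them, because only V2, V3, F2 and F3 hold a Ct. With the limit of 35 cycles, the block with U6, the fits without V1 or F1, the pools numbered 2 and 3 and the other variance models, they stay at −1.16 and 1.10 by construction. For mmu-miR-183 the value moved to −1.98 with the other endogenous controls and to −0.53 with undetermined wells set to 40 or to 35. For mmu-miR-96 it was 0.28 with the other endogenous controls and 1.43 with the global mean, and the methods' t-test gave an unadjusted p of 0.030 and an adjusted p of 0.996 for it (range of adjusted p over its alternatives, 0.724 to 0.999). The replicate block left the log2 fold changes of the members at 1.20, −1.16 and 1.10 and changed no call. hsa-miR-183# turned positive with the other endogenous controls (1.24), the global mean (0.13), undetermined wells set to 40 (2.65) or to 35 (0.99), and without F2 (0.16), and it ranged from −1.31 to 0.16 with single pools left out.

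With pools left out, the difference of mmu-miR-183 was 1.91 to 2.60 cycles from mmu-miR-96 and 0.55 to 0.66 from mmu-miR-182. That of mmu-miR-96 from mmu-miR-182 was −1.95 to −1.36. Undetermined wells set to 40 or to 35 gave 1.5, 1.73 and 0.22, where V1 and F1 add only the fill and mmu-miR-182. The cause of these changes was not tested. mmu-miR-183 and mmu-miR-96 had 2 determined pools a group, which limits what their tests can show.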
